A study of Homo sapiens with 18 samples.

Results

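The 10 genes described here are transcriptional targets of WNT/β-catenin signalling in colon cancer cells: AXIN2, NKD1, LGR5, RNF43, ZNRF3, LEF1, TCF7, ASCL2, SP5 and MYC. They were taken by symbol from a list of known targets, with earlier results of these data known, and they are 10 of the 26485 gene symbols counted. All 10 passed the filter on low counts, which left 12832 genes. The data are RNAseq of SW620, a human colon cancer cell line, with 18 libraries in 6 groups of 3. Cells were transfected with scramble siRNA or with siRNA against the mitochondrial protease Lonp1 (siLonp1). In each siRNA arm, the cells were kept at 37 °C (Ctrl), exposed to 42 °C for 1 h (HS), or exposed to 42 °C for 1 h and returned to 37 °C for 1 h (HS+REC). The methods describe independent biological replicates, all come from 1 cell line, and siLonp1 lowered LONP1 mRNA without removing it.

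WNT ligands bind Frizzled receptors and LRP co-receptors, which stops the destruction complex of APC, AXIN, GSK3 and CK1 from degrading β-catenin. β-catenin then binds TCF/LEF factors on DNA and switches on genes such as those described here, several of which feed back to restrain the pathway. In most colon cancers, SW620 included, APC is truncated, so these genes are transcribed without added ligand.

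SP5, a zinc finger transcription factor, is itself a target and a repressor of TCF/LEF targets. The RefSeq promoter table (GRCh38.p14, 250 bases before to 50 bases after a start site) held SP5, RNF43, LEF1 and TCF7. The short TCF/LEF motif, CTTTGAT or CTTTGAA on either strand, was found in 6.86% of the 35116 promoters of the table. The SP5 window at chr2:170715087-170715386 on the plus strand held 3 matches, which began 148, 109 and 84 bases before the start and are in capitals below. The windows of the other three held 0, but each of these surrounds a start inside the gene as GENCODE v44 draws it, whereas the SP5 window surrounds the start of its gene. The window is shown because SP5 is the member with both a motif match and one of the largest responses to heat.
SP5: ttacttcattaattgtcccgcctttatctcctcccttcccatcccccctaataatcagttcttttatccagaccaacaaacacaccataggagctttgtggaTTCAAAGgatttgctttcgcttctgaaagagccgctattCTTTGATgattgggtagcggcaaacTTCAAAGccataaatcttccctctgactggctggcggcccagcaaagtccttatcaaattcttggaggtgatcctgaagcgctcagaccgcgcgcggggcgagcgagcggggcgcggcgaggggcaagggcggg
A match of letters is a description and not a measured binding site.

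Totals ran from 30815860 to 47279297 counts per library, and the shallowest was replicate 3 of HS scramble. LONP1 averaged 220.8 CPM (read counts relative to library size, scaled by TMM) in Ctrl scramble and 20.4 in Ctrl siLonp1, 214.0 and 11.7 in HS, and 218 and 27.2 in HS+REC. HSPA1A, a heat-induced chaperone, was between 13.7 and 18.8 CPM in the 6 Ctrl libraries and at 1878 CPM or more in every heated library, and the 4 heat genes checked (with DNAJB1, BAG3 and HSPH1) all rose with HS in scramble. Of 10 colon epithelium markers, KRT20 and LGALS4 were at 1.25 CPM or less in all libraries. The 10 summed to 9271 to 9687 CPM in Ctrl scramble, 10320 to 11010 in Ctrl siLonp1, 9849 to 10260 in HS scramble, 11570 to 12130 in HS siLonp1, 8771 to 10170 in HS+REC scramble and 8761 to 10870 in HS+REC siLonp1. The colon transcription factor CDX2 was between 9.97 and 30.6 CPM and was lower with siLonp1 in Ctrl (-0.90), HS (-1.38) and HS+REC (-1.07). Of the 9 colon markers tested, 3 were higher and 2 lower with siLonp1 in Ctrl (26.3% and 22.9% of all genes), 6 and 2 in HS (28.1% and 26.7%), and 2 and 3 in HS+REC (26.8% and 27.3%). Of 12 markers of fibroblasts, leukocytes and endothelium, COL3A1 had 0 counts and COL1A1, LUM and CD68 were present. Their sum was 53.3 to 59.3 CPM in Ctrl scramble, 39.3 to 40.5 in Ctrl siLonp1, 53.6 to 57.7 in HS scramble, 43.7 to 48.0 in HS siLonp1, 74.2 to 75.7 in HS+REC scramble and 62.3 to 66.2 in HS+REC siLonp1. Of the 5 tested, PDGFRB and CD68 were higher and LUM lower with siLonp1 in each condition (1.18, 0.36 and -1.49 in Ctrl). The part of these shifts in the results was not tested.

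Levels of the members in Ctrl scramble spanned a wide range per length of transcript (CPM per kb of the GENCODE canonical transcript). The reads were counted on UCSC genes, whose lengths were not used, so the order depends on the GENCODE lengths. NKD1 is the longest at 17039 bases, with ZNRF3 next at 6872. MYC was highest at 169 ± 10.5 CPM per kb (SD, n = 3). NKD1 at 91.0 ± 3.87 and AXIN2 at 87.0 ± 3.88 came next, and their libraries overlapped. SP5 at 41.4, ASCL2 at 30.1 and RNF43 at 23.7 were intermediate, and ZNRF3 at 15.8, LGR5 at 14.9 and TCF7 at 12.5 were lower. LEF1 was lowest at 2.04 CPM per kb, and between 289 and 354 of its reads were counted per Ctrl scramble library. All values below are CPM, which compare a gene between libraries only. Because the libraries are bulk RNA, fewer cells with a transcript and less of it per cell cannot be told apart.

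**Figure D1:**
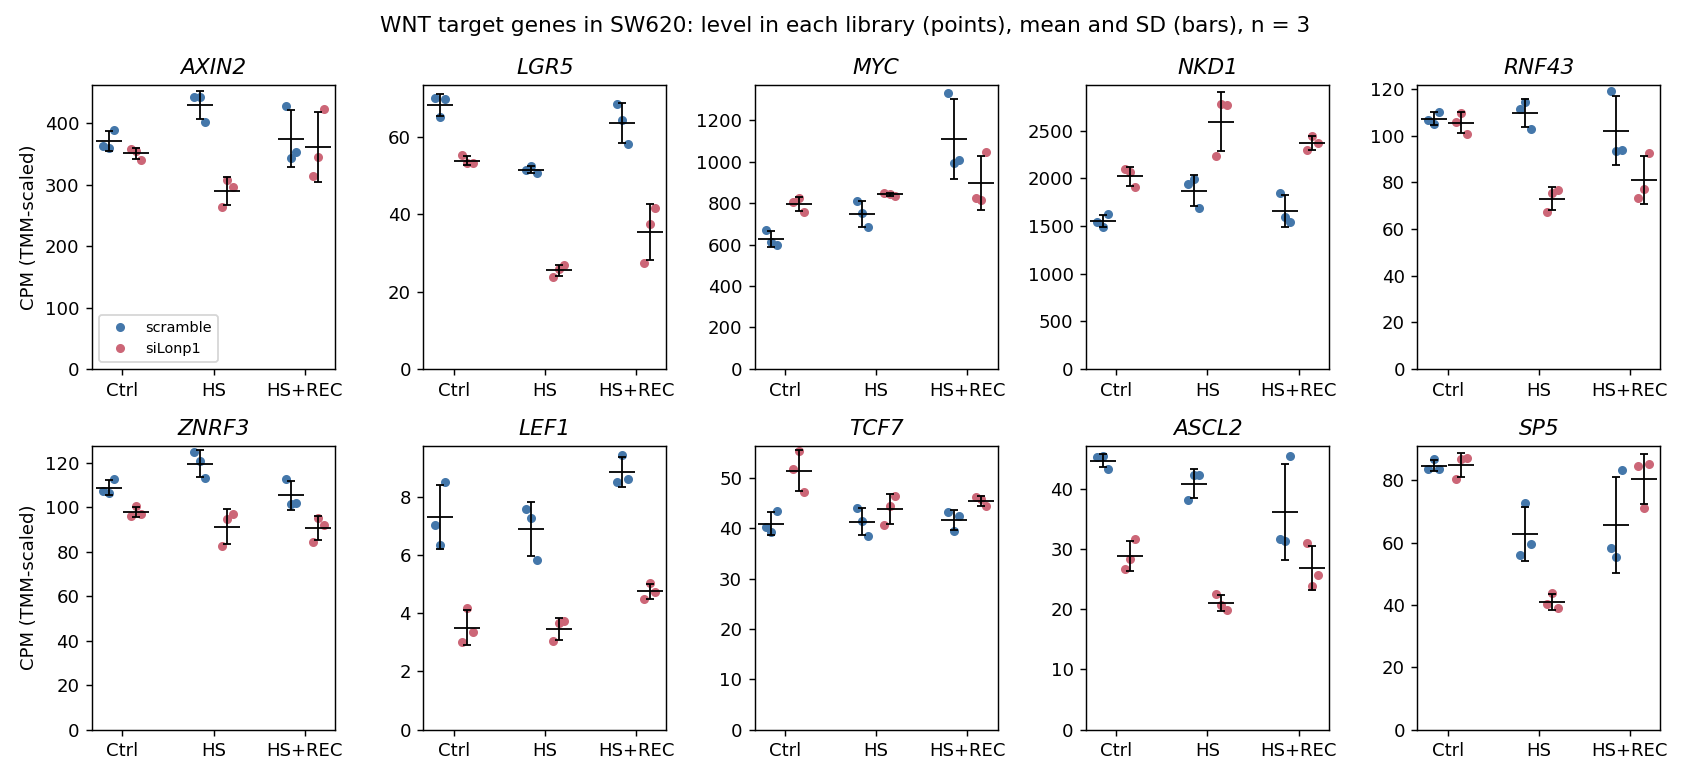
CPM of each of the 10 WNT target genes in the 18 libraries, with a panel per gene, the 6 groups along the horizontal axis, points for libraries, and the mean and SD of each group. LGR5 in HS siLonp1 sits at 23.9 to 26.8 CPM, under every other library.

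The comparisons were of HS and HS+REC with Ctrl in each siRNA arm, of HS+REC with HS in each arm, and of siLonp1 with scramble in each condition. An interaction asked whether the heat effect differed between the arms. A gene was called at an FDR of at most 0.05 at any fold, from edgeR's quasi-likelihood test, where p-values were adjusted by Benjamini-Hochberg across the 12832 genes. The SE of a gene rests on a spread estimated from all 18 libraries, so it is not the spread of the groups compared. Pairs of replicates differed more in HS+REC (chi-square per degree of freedom 15.6 to 27.5) than in Ctrl (3.64 to 9.34). Those of HS lay at 3.62 to 20. The SEs and FDRs of recovery comparisons may therefore read as too certain. Several comparisons share libraries, so their counts are not independent of each other.

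In scramble, HS changed 4 of the 10 members: MYC and NKD1 rose (2 of 10, against 18.6% of all genes) and LGR5 and SP5 fell (2 of 10, against 17.3%). In siLonp1, NKD1 rose (1 of 10, against 20.2% of all genes) and AXIN2, LGR5, RNF43, TCF7, ASCL2 and SP5 fell (6 of 10, against 22.1%). Of these, LGR5 and SP5 fell by more than 2-fold (2 of 10, against 1.15% of all genes).

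After recovery, MYC was higher than in Ctrl in scramble (1 of 10, against 21.8%) and ASCL2 and SP5 were lower (2 of 10, against 20.5%). In siLonp1, NKD1 and LEF1 were higher (2 of 10, against 24.6%) and LGR5, RNF43 and TCF7 lower (3 of 10, against 26.6%). From HS to HS+REC, LGR5, MYC and LEF1 rose in scramble (3 of 10, against 14.2%) and ZNRF3 fell (1 of 10, against 12.7%). In siLonp1, AXIN2, LGR5, LEF1, ASCL2 and SP5 rose (5 of 10, against 16.3%), and 0 of the 10 fell by edgeR, by DESeq2 or at an unadjusted edgeR p under 0.05, against 15.6% of all genes. Without HS siLonp1 replicate 1, NKD1 fell (-0.23, FDR 0.0269).

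With siLonp1 in Ctrl, MYC, NKD1 and TCF7 were higher than in scramble (3 of 10, against 26.3%) and LGR5, LEF1 and ASCL2 lower (3 of 10, against 22.9%). In HS, NKD1 was higher (1 of 10, against 28.1%), and AXIN2, LGR5, RNF43, ZNRF3, LEF1, ASCL2 and SP5 were lower (7 of 10, against 26.7%). In HS+REC, NKD1 and SP5 were higher (2 of 10, against 26.8%) and LGR5, MYC, RNF43, ZNRF3, LEF1 and ASCL2 lower (6 of 10, against 27.3%).

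The interaction of siLonp1 with HS was past the threshold for AXIN2, LGR5, RNF43 and SP5 (4 of 10), each with a more negative HS effect in siLonp1, against 1.39% of all genes in that direction and 0.475% in the other. Leaving out 1 library gave between 1 and 4 members, and LGR5 was past the threshold in each of those fits. With RLE size factors, AXIN2 and SP5 missed it. That with HS+REC was past it for MYC (1 of 10), in the same direction, against 0.896% of all genes and 0.686% in the other direction.

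**Figure D2:**
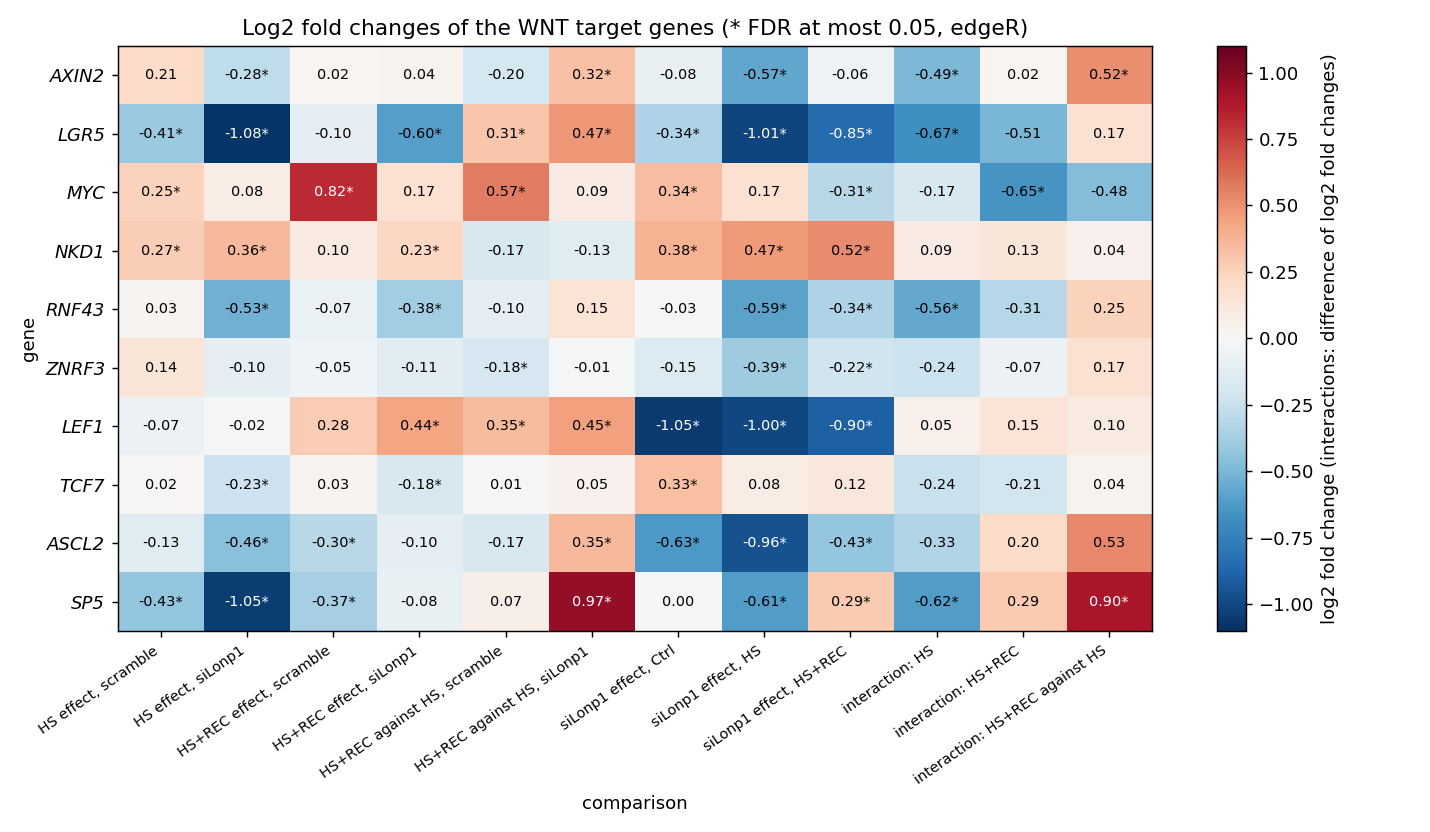
Log2 fold change of each member (rows) in each comparison (columns), by colour. LEF1 is lower with siLonp1 in all 3 conditions (-1.05 to -0.90), and LGR5 and SP5 are lowest for HS in siLonp1 (-1.08 and -1.05).

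AXIN2 is a scaffold of the destruction complex and a widely used readout of the pathway. It was measured at 362, 359.9 and 389.6 CPM in Ctrl scramble and at 443, 443 and 403 CPM in HS scramble. In siLonp1, the levels were 358, 354 and 340.5 CPM in Ctrl and 264, 308 and 297 CPM in HS. HS libraries thus lay above Ctrl in scramble and below Ctrl in siLonp1, with no overlap in either arm. HS differed from Ctrl by 0.21 in log2 (SE 0.09, FDR 0.0681) in scramble, which missed the threshold, and it fell by 0.28 (SE 0.09, FDR 0.0153) in siLonp1. The scramble difference was past the threshold without HS scramble replicate 3 (0.28, FDR 0.0289), with no low-count filter (0.22, FDR 0.0102) and with only the groups compared (0.23, FDR 0.00545). The interaction was -0.49 (SE 0.13, FDR 0.0473). Of the 12 fits that left out a library of the contrast, it was past the threshold only in that without HS scramble replicate 3, and the other 11 gave -0.54 to -0.43. The AXIN2 gene is at chr17:65528563-65561648 (hg38, minus strand). Its HS effect in siLonp1 missed the threshold without Ctrl siLonp1 replicate 1 (-0.26) or HS siLonp1 replicate 1 (-0.22). After recovery, AXIN2 was 344 to 429 CPM in scramble and 314 to 424 CPM in siLonp1, which overlapped. From HS to HS+REC it rose by 0.32 in siLonp1 (SE 0.09, FDR 0.00813), a call lost without HS siLonp1 replicate 1 (0.26) or HS+REC siLonp1 replicate 3 (0.19). In scramble that difference was -0.20 (SE 0.09, FDR 0.115), and it was past the threshold with library size only (-0.25, FDR 0.0497), with no low-count filter (-0.20, FDR 0.0259) and without HS+REC scramble replicate 1 (-0.30, FDR 0.0153).

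NKD1, an inhibitor that binds Dishevelled, had the highest counts of the 10. Ctrl scramble libraries had 1538, 1492 and 1622 CPM, and Ctrl siLonp1 libraries 2094, 2066 and 1910 CPM. In HS it was 1936, 1993 and 1687 CPM in scramble and 2235, 2784 and 2769 CPM in siLonp1. All siLonp1 libraries were above all scramble libraries of the same condition. SiLonp1 raised NKD1 by 0.38 in log2 in Ctrl (SE 0.08, FDR 0.00041), 0.47 in HS (SE 0.08, FDR 3.58e-05) and 0.52 in HS+REC (SE 0.08, FDR 1.17e-05). HS raised it by 0.27 in scramble (SE 0.08, FDR 0.0104) and 0.36 in siLonp1 (SE 0.08, FDR 0.000811). The difference between the 2 HS effects was 0.09 (95% interval -0.15 to 0.32). The scramble effect missed the threshold without HS scramble replicate 2 (0.22).

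LGR5, a receptor for R-spondins and a marker of intestinal stem cells, had a larger fall with HS in siLonp1 than in scramble. The gene is at chr12:71439798-71586310 (hg38, plus strand). Its levels were 70.1, 65.1 and 69.8 CPM in Ctrl scramble and 51.5, 52.4 and 50.6 CPM in HS scramble. In siLonp1 they were 55.2, 53.2 and 53.4 CPM in Ctrl and 23.9, 25.9 and 26.8 CPM in HS. Every siLonp1 library was below every scramble library of its condition. LGR5 fell by 0.41 with HS in scramble (SE 0.10, FDR 0.00161) and by 1.08 in siLonp1 (SE 0.10, FDR 4.45e-09). The interaction was -0.67 (SE 0.14, FDR 0.00938) and was past the threshold in all 12 fits that left out a library (-0.71 to -0.63). In HS+REC, LGR5 was 68.6, 64.4 and 58.3 CPM in scramble and 27.4, 37.4 and 41.7 CPM in siLonp1. It remained below Ctrl in siLonp1 (-0.60, SE 0.10, FDR 1.39e-05), whereas in scramble HS+REC differed from Ctrl by -0.10 (SE 0.09, FDR 0.419). That difference between arms, -0.51 (SE 0.14), missed the threshold at FDR 0.0584. It was past it without HS+REC scramble replicate 3 (-0.57) or HS+REC siLonp1 replicate 3 (-0.64).

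RNF43 and ZNRF3 are related ubiquitin ligases that remove Frizzled receptors from the cell surface. RNF43, at chr17:58353676-58417595 (hg38, minus strand), was 107, 105 and 110.2 CPM in Ctrl scramble, and 112, 114 and 103 CPM in HS scramble. In siLonp1 it was 106, 109.7 and 101 CPM in Ctrl and 67.2, 75.2 and 76.5 CPM in HS. HS therefore lowered RNF43 in siLonp1, by 0.53 in log2 (SE 0.09, FDR 2.73e-05), while the scramble groups overlapped (0.03, SE 0.09, FDR 0.81). The interaction was -0.56 (SE 0.12, FDR 0.0175). It missed the threshold, at -0.56 to -0.51, in 6 of 12 fits, which left out Ctrl scramble replicate 2, HS siLonp1 replicate 1, either of Ctrl siLonp1 replicates 1 and 2, or either of HS scramble replicates 1 and 2. ZNRF3 was 125, 121 and 113 CPM in HS scramble and 82.5, 94.7 and 96.8 CPM in HS siLonp1. It was lower with siLonp1 in HS (-0.39, SE 0.07, FDR 3.38e-05) and HS+REC (-0.22, SE 0.07, FDR 0.00781), the latter lost without HS+REC scramble replicate 1 (-0.17). In Ctrl the difference was -0.15 (FDR 0.0583), which was past the threshold with DESeq2 (FDR 0.0406), RLE factors (FDR 0.0473), library size only (FDR 0.00914) and only the groups compared (FDR 0.00341). Its interaction with HS was -0.24 (SE 0.09, FDR 0.218).

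LEF1 and TCF7 are among the genes for the TCF/LEF factors through which β-catenin acts, and in Ctrl siLonp1 moved these genes in opposite directions. LEF1 was 7.03, 6.35 and 8.51 CPM in Ctrl scramble and 3.002, 4.18 and 3.35 CPM in Ctrl siLonp1. It fell with siLonp1 by 1.05 in Ctrl (SE 0.13, FDR 7.75e-07), 1.00 in HS (SE 0.13, FDR 1.55e-06) and 0.90 in HS+REC (SE 0.13, FDR 2.56e-06). In HS+REC it was 8.53, 9.44 and 8.61 CPM in scramble and 4.499, 5.04 and 4.73 CPM in siLonp1. No scramble library overlapped a siLonp1 library in any condition. HS differed from Ctrl by -0.07 in scramble and -0.02 in siLonp1, and the difference of the 2 was 0.05 (95% interval -0.34 to 0.44). TCF7 was 40.2, 39.3 and 43.5 CPM in Ctrl scramble and 51.9, 55.4 and 47.2 CPM in Ctrl siLonp1, a rise of 0.33 (SE 0.07, FDR 0.000496). The siLonp1 differences of TCF7 in HS (0.08) and HS+REC (0.12) missed the threshold. HS lowered TCF7 in siLonp1 by 0.23 (SE 0.07, FDR 0.0109), a call lost without Ctrl siLonp1 replicate 2 (-0.17) or HS siLonp1 replicate 1 (-0.18).

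ASCL2, a transcription factor of intestinal stem cells, was lower in siLonp1 in every condition. It was 45.3, 45.5 and 43.4 CPM in Ctrl scramble, 26.6, 28.3 and 31.6 CPM in Ctrl siLonp1, 38.1, 42.3 and 42.3 CPM in HS scramble, and 22.5, 20.7 and 19.9 CPM in HS siLonp1. The siLonp1 effect was -0.63 in Ctrl (SE 0.11, FDR 6.07e-05), -0.96 in HS (SE 0.11, FDR 3.05e-07) and -0.43 in HS+REC (SE 0.11, FDR 0.00259). HS lowered it by 0.46 in siLonp1 (SE 0.12, FDR 0.00238). The interaction with HS was -0.33 (SE 0.16, FDR 0.331). HS+REC scramble replicate 3, at 45.4 CPM, stood above replicates 1 and 2 at 31.6 and 31.4 CPM, and without it the siLonp1 effect in HS+REC was -0.23.

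SP5, whose promoter is printed above, fell with HS in both arms. It was 83.5, 86.8 and 83.8 CPM in Ctrl scramble and 80.6, 86.8 and 87.2 CPM in Ctrl siLonp1, with no difference beyond the spread (0.00, SE 0.11, FDR 0.987). In HS it was 56.1, 72.6 and 59.6 CPM in scramble and 40.2, 43.95 and 39.1 CPM in siLonp1. SP5 fell by 0.43 in scramble (SE 0.11, FDR 0.00411) and by 1.05 in siLonp1 (SE 0.12, FDR 8.05e-08). The interaction, -0.62 (SE 0.16, FDR 0.0475), was likewise past the threshold in 1 of 12 such fits, that without HS scramble replicate 3, and the other 11 gave -0.69 to -0.50. In HS+REC it was 58.2, 55.5 and 83.2 CPM in scramble and 84.5, 71.0 and 85.3 CPM in siLonp1. From HS to HS+REC, SP5 rose by 0.97 in siLonp1 (SE 0.12, FDR 4.59e-07), and in scramble the difference was 0.07 (SE 0.11, FDR 0.725). A comparison of these 2 recoveries, added after the values had been seen, gave 0.90 (SE 0.16, FDR 0.00342) for SP5 and 0.52 (SE 0.13, FDR 0.0422) for AXIN2, 2 of 10 members against 1.09% of all genes (0.288% in the other direction). That of SP5 held in all 12 fits that left out a library, and that of AXIN2 missed the threshold in 7 of 12 (0.38 to 0.53) and with only the groups compared (FDR 0.118). MYC had a value of -0.48 in this comparison (SE 0.14, FDR 0.0902), and ASCL2 0.53 (SE 0.16, FDR 0.112). Both were past the threshold with DESeq2 (-0.47 for MYC and 0.54 for ASCL2) and with no low-count filter (-0.50 and 0.51).

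MYC, a growth-promoting transcription factor, had the largest rise of HS+REC over Ctrl among the members. It was 672, 614 and 598 CPM in Ctrl scramble and 1333, 992 and 1007 CPM in HS+REC scramble. In siLonp1 it was 805, 826 and 758 CPM in Ctrl and 824, 816 and 1048 CPM in HS+REC. In scramble no HS+REC library overlapped Ctrl, while in siLonp1 the groups overlapped. MYC rose by 0.82 in scramble (SE 0.10, FDR 3.02e-07), and in siLonp1 the difference was 0.17 (SE 0.10, FDR 0.15). The SD of MYC was 193 CPM in HS+REC scramble and 39 in Ctrl scramble, and 132 and 35 in siLonp1. The interaction with HS+REC was -0.65 (SE 0.14, FDR 0.0147), and among 12 fits that left out a library it missed the threshold only without Ctrl scramble replicate 3 (-0.62, FDR 0.0504). SiLonp1 raised MYC in Ctrl by 0.34 (SE 0.10, FDR 0.00558). In HS scramble it rose by 0.25 (FDR 0.0456), a call lost without Ctrl scramble replicate 2 (0.24) or 3 (0.22), or HS scramble replicate 1 (0.19) or 2 (0.25), or with library size only (0.23, FDR 0.079).

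Many of the remaining calls of the recovery libraries were lost when a single library was left out. SiLonp1 lowered MYC in HS+REC by 0.31 (FDR 0.01), a call lost without HS+REC scramble replicate 1 (-0.16) or HS+REC siLonp1 replicate 1 (-0.26) or 2 (-0.25), or with only the groups compared (FDR 0.0537). SP5 was 0.29 higher with siLonp1 in HS+REC (FDR 0.0334), which was lost without HS+REC scramble replicate 1 (0.21) or 2 (0.18), or HS+REC siLonp1 replicate 1 (0.24) or 3 (0.24), and was 0.50 without HS+REC scramble replicate 3. It was also lost with library size only (0.22, FDR 0.109) and with only the groups compared (FDR 0.0994). RNF43 was lower with siLonp1 in HS+REC (-0.34, FDR 0.00248), and -0.21 without HS+REC scramble replicate 1. MYC and SP5 had overlapping groups in that comparison.

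In scramble, HS+REC was below Ctrl for SP5 (-0.37, FDR 0.0106), a call lost without HS+REC scramble replicate 1 (-0.29) or 2 (-0.26), and at -0.57 without replicate 3. ASCL2 was also below Ctrl (-0.30, FDR 0.0277), a call lost without Ctrl scramble replicate 1 (-0.30) or 2 (-0.29), or HS+REC scramble replicate 1 (-0.22) or 2 (-0.21), and at -0.51 without replicate 3. From HS to HS+REC in scramble, MYC rose by 0.57 (FDR 8.33e-05) and LGR5 by 0.31 (FDR 0.0175), the latter lost without HS+REC scramble replicate 1 (0.25) or with library size only (FDR 0.065). LEF1 rose by 0.35 (FDR 0.0325), which was lost without HS scramble replicate 2 (0.39) or 3 (0.24), or HS+REC scramble replicate 2 (0.30), or with library size only (0.29, FDR 0.0795). ZNRF3 fell by 0.18 (FDR 0.0413), which was lost without HS scramble replicate 1 (-0.15) or 2 (-0.18), or HS+REC scramble replicate 2 (-0.16) or 3 (-0.16), or with only the groups compared (FDR 0.0827).

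In siLonp1, HS+REC was below Ctrl for RNF43 (-0.38, FDR 0.000789), and LGR5 rose from HS to HS+REC by 0.47 (FDR 0.0006). LEF1 was above Ctrl in HS+REC (0.44, FDR 0.011), which was lost without Ctrl siLonp1 replicate 1 (0.34). It rose from HS to HS+REC by 0.45 (FDR 0.0142), which was lost without HS siLonp1 replicate 1 (0.36) or HS+REC siLonp1 replicate 2 (0.41). ASCL2 rose from HS to HS+REC by 0.35 (FDR 0.0198), which was lost without HS siLonp1 replicate 2 (0.34) or 3 (0.32), or HS+REC siLonp1 replicate 1 (0.23). NKD1 was above Ctrl in HS+REC (0.23, FDR 0.0201), which was lost without Ctrl siLonp1 replicate 3 (0.19) or HS+REC siLonp1 replicate 2 (0.21), or with library size only (0.15, FDR 0.13). TCF7 was below Ctrl in HS+REC (-0.18, FDR 0.0374), and 5 of 6 fits that left out a library, all but that without Ctrl siLonp1 replicate 3, lost the call (-0.19 to -0.12), as did the fit with only the groups compared (FDR 0.104).

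**Figure D3:**
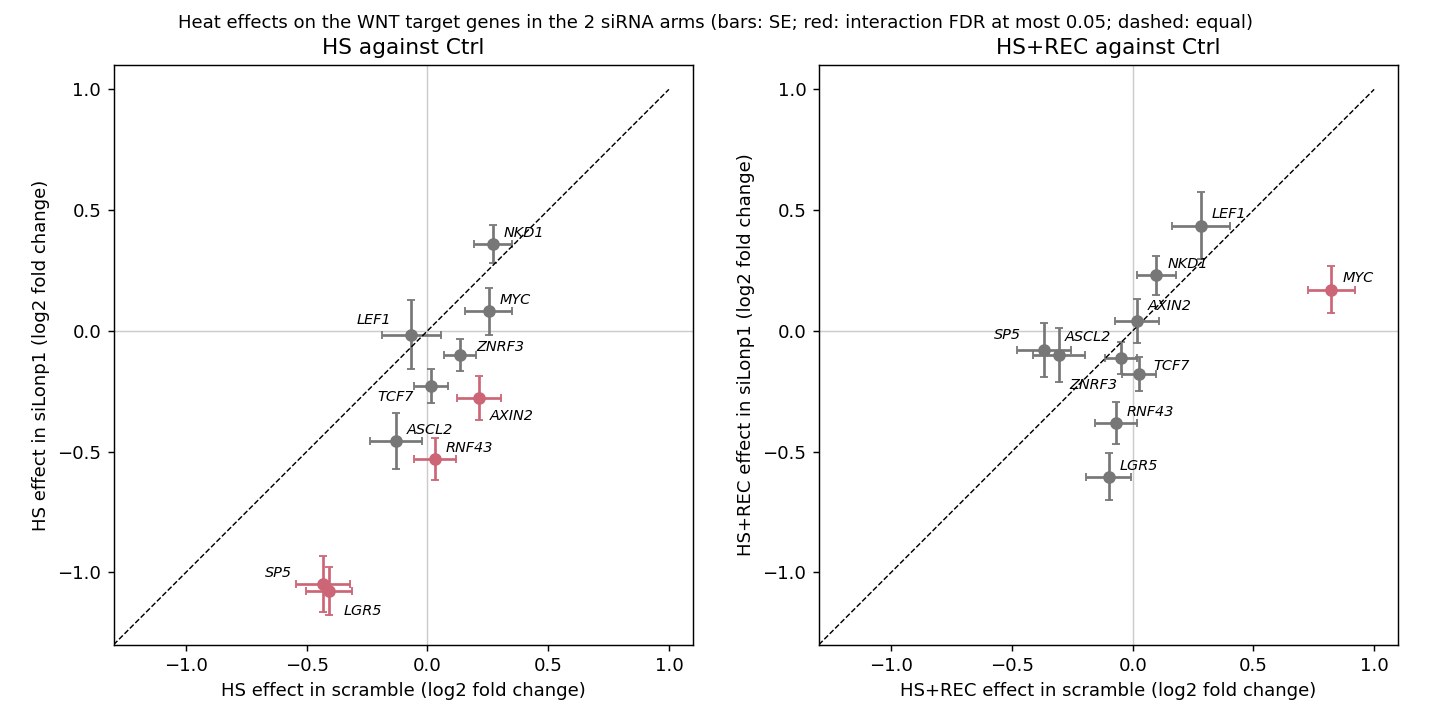
Log2 fold change of HS (left) and HS+REC (right) against Ctrl in scramble (horizontal) and siLonp1 (vertical), with SE bars, a dashed line of equal effects, and red for an interaction FDR of at most 0.05. AXIN2, LGR5, RNF43 and SP5 lie under the line for HS, and MYC for HS+REC (0.82 against 0.17).

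The rest of the pathway was read from lists of ligands with their secretion genes, receptors, inhibitors, destruction complex genes, nuclear partners and other targets. With siLonp1 in Ctrl, where 26.3% of all genes were higher and 22.9% lower, 6 of the 8 tested genes of the first list were higher and 1 was lower, of 25 listed. The 8 are 6 WNT ligand genes and the secretion genes PORCN, an acyltransferase that rose (0.40), and WLS, a carrier that fell (-0.23). WNT7B (2.20, SE 0.19), WNT6 (2.07, SE 0.21) and WNT10A (1.23, SE 0.22) rose most among the ligands, WNT7B from a mean of 0.833 CPM in Ctrl scramble, below the filter limit, to 3.84 CPM. The secreted LRP inhibitor DKK1 rose by 2.02 (SE 0.09). In the same comparison 4 of 16 receptors were higher and 2 lower, 3 and 3 of 8 inhibitors, 3 and 2 of 17 destruction complex genes, and 4 and 3 of 11 nuclear partners. Of 21 other targets, 10 were higher and 3 lower, with JUN (0.92), FOSL1 (0.88) and PLAUR (0.86) among the higher. With siLonp1 in HS, 11 of the 21 were higher and 6 lower, against 28.1% and 26.7% of all genes. In HS+REC, 13 were higher and 4 lower, against 26.8% and 27.3%. With HS in scramble, 9 of 21 other targets were lower, against 17.3% of all genes, and 5 were higher, against 18.6%. Of 16 receptors, 5 were lower, against 17.3%, and 6 were higher, FZD7 among them. FZD10 fell by 1.21 (SE 0.09). The level of FZD7 averaged 0.39 CPM in Ctrl scramble against 3.04 CPM after HS, and since it passed the low-count filter only through the heated libraries, its difference of 2.97 (SE 0.27) is given as a description and the count that holds it is not set against all genes. In the HS interaction, 2 of the 81 tested genes of the 6 lists passed, both lower, against 1.39% of all genes: the receptor FZD5 (-0.46, SE 0.09, FDR 0.00938) and SOX9 of the other targets (-0.79, SE 0.14, FDR 0.00442). In the HS+REC interaction 1 of 81 passed, TBL1XR1 of the nuclear partners (-0.49), against 0.896%. In the comparison of recoveries 5 of 81 were higher, against 1.09%, and 1 lower, against 0.288%. They were FZD5 (0.37), SOX9 (0.69), DKK1 (0.55), PROX1 (0.68) and TCF7L2 (0.49), and TBL1XR1 (-0.57). PORCN, WLS, FZD5 and TCF7L2 lie outside the rule for named genes, and FZD5 and TCF7L2 were chosen after their values were seen.

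**Figure D4:**
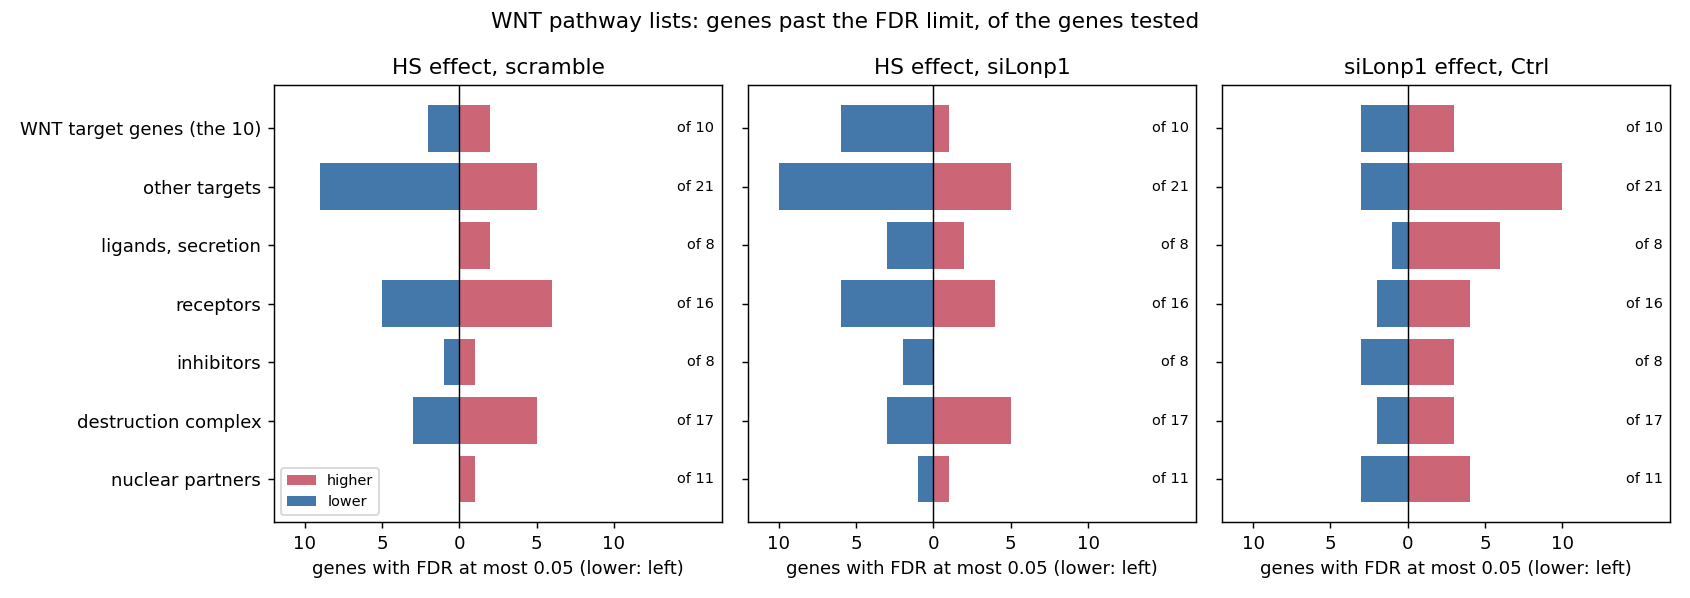
Number of tested genes of each WNT pathway list that were higher or lower at an FDR of at most 0.05 for HS in each arm and siLonp1 in Ctrl; bars to the left count lower genes and bars to the right higher genes. Ligands and secretion genes with siLonp1 in Ctrl were 6 higher and 1 lower of 8.

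Across the 18 libraries, which come from 6 groups and so share their group differences, the genes most like AXIN2 in log2 CPM were GON4L (Pearson r 0.885), SOX9 (0.847), DOT1L (0.832), ZC3H10 (0.823) and the member RNF43 (0.823). Between members, LGR5 and RNF43 ran together (0.894), and NKD1 ran opposite to ASCL2 (-0.884) and LGR5 (-0.846). These values describe the libraries and carry no test.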

How the data were processed

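RNAseq counts of 18 SW620 libraries were analysed. The authors prepared stranded mRNA libraries, aligned paired reads to hg38 with STAR 2.7.3a and counted them on UCSC genes with featureCounts, and the deposited values are raw counts. The strand setting, the treatment of shared reads, the annotation release and the siRNA sequence used are not given in the sources used here. The low-count filter required more than 1 CPM in 3 or more libraries. For each gene, edgeR 4.0.16 (R 4.3.3) was used with TMM factors, 1 mean per group over all 18 libraries, its quasi-likelihood test and Benjamini-Hochberg adjustment. CPM per kb used GENCODE v44 canonical lengths. Intervals are at 95%. In simulated counts, 65% of changes of 0.5 and 96% of changes of 1 in log2 were recovered for the HS interaction.

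All members were named, with LONP1, the heat genes, up to 3 called genes per pathway list and comparison, and the 5 genes most like AXIN2. Some cell type markers, PORCN, WLS, FZD5 and TCF7L2 were named besides these. The members and lists were chosen with earlier results of these data known. The main model did not pair libraries by replicate number. Of 27 same-number pairs, 6 correlated above 0.1 (-0.379 to 0.462). Pairs with different numbers were not set beside them, so this check cannot tell whether the libraries were paired. Alternatives were RLE factors, library size only, no low-count filter, the replicate block, only the groups compared, DESeq2 1.42.0, FDR 0.01, fold above 2 and each library left out.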

Additional observations from a re-analysis of the deposited data

Results flagged for a closer look

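The HS effect differed between siLonp1 and scramble by the edgeR interaction test for AXIN2 (-0.49), LGR5 (-0.67), RNF43 (-0.56) and SP5 (-0.62), on the log2 scale and more negative in siLonp1. Of the 12 fits that left out a library, LGR5 was past the threshold in 12, RNF43 in 6, and AXIN2 and SP5 in 1 each, and RLE factors also put AXIN2 and SP5 short of it. The HS+REC effect differed between the arms for MYC (-0.65). In the comparison of HS+REC with HS between the arms, which was added after the values had been seen, AXIN2 (0.52) and SP5 (0.90) differed. That of AXIN2 missed the threshold in 7 of 12 fits that left out a library. It also missed it with the replicate block and with only the groups compared. SP5 rose in siLonp1 (0.97) and was 0.07 in scramble, and AXIN2 rose in siLonp1 (0.32) and was -0.20 in scramble, where neither difference was past the threshold, though that of AXIN2 was with library size only (-0.25), with no low-count filter (-0.20) and without HS+REC scramble replicate 1 (-0.30).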

How the results depend on the processing

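The counts of called members depended on the threshold, on single libraries and, in some comparisons, on the fit. At FDR 0.01, 2 members remained for HS in scramble, 1 for HS+REC in scramble, 2 for HS+REC in siLonp1, 1 and 3 for HS+REC against HS in scramble and siLonp1, 1 (LGR5) for the HS interaction, 0 for the HS+REC interaction and 1 (SP5) for the comparison of recoveries. With a fold change above 2, 2 remained for HS in siLonp1 (LGR5 and SP5), 1 for siLonp1 in Ctrl (LEF1), 1 for siLonp1 in HS (LGR5) and 0 in every other comparison. The HS interaction had 2 members (LGR5 and RNF43) with RLE factors and 2 (the same genes) with the replicate block, where AXIN2 (-0.49) and SP5 (-0.61) missed the threshold. The HS+REC interaction had 2 (LGR5 and MYC) with no filter on low counts and 2 with DESeq2. The comparison of recoveries had 4 with no filter and 4 with DESeq2 (AXIN2, ASCL2 and SP5 higher in siLonp1, MYC lower), 1 with the block and 1 with only the groups compared. The causes were not tested. Whether the replicate numbers mark paired libraries cannot be told (pairing check in the processing notes), and the block moved no other count by over 1.5 times. It also ended the calls of TCF7 for HS+REC in siLonp1 (-0.18, FDR 0.0503), ZNRF3 for HS+REC against HS in scramble (-0.18, FDR 0.0552) and AXIN2 for the comparison of recoveries (0.51, FDR 0.0688). Calls gained and not given in the report were LEF1 for HS+REC in scramble (0.28 with no filter, 0.29 with only the groups compared, 0.41 without Ctrl scramble replicate 3), MYC for siLonp1 in HS (0.18 with no filter, 0.17 with only the groups compared), ZNRF3 for HS in scramble (0.15 with only the groups compared, 0.20 without HS scramble replicate 3) and for HS+REC in siLonp1 (-0.19 with library size only), and ASCL2 for the HS interaction (-0.34 with only the groups compared). For HS+REC against HS in scramble they were NKD1 (-0.23 with library size only, -0.18 with no filter, -0.26 without HS scramble replicate 3 or HS+REC scramble replicate 1), RNF43 (-0.23 without HS+REC scramble replicate 1) and ASCL2 (-0.38 without HS+REC scramble replicate 3), and for the HS+REC interaction SP5 (0.50 without HS+REC scramble replicate 3).

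Leaving out 1 library gave 2 to 6 members for HS in scramble, 1 to 4 for HS+REC in scramble, 3 to 4 for HS+REC in siLonp1, 2 to 6 for HS+REC against HS in scramble, 5 to 8 for siLonp1 in HS+REC, 1 to 4 for the HS interaction, 0 to 3 for the HS+REC interaction and 1 to 3 for the comparison of recoveries.

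Of 1740 recomputed log2 fold changes, 51 changed sign, in 20 member comparisons, and 0 of these were past the FDR in either setting. SP5 for siLonp1 in Ctrl (0.003) was -0.007 with RLE factors, -0.072 with library size only, -0.013 with only the groups compared and -0.007 with DESeq2. With library size only, TCF7 was -0.01 for HS in scramble, -0.056 for HS+REC in scramble, -0.046 for HS+REC against HS in scramble and -0.013 for siLonp1 in HS, and AXIN2 was -0.065 and -0.038 for HS+REC in scramble and siLonp1. Leaving out 1 library gave the following ranges. SP5 ran from -0.017 to 0.039 for siLonp1 in Ctrl, -0.143 to 0.185 for HS+REC against HS in scramble and -0.125 to 0.002 for HS+REC in siLonp1. TCF7 ran from -0.031 to 0.087 for HS and -0.003 to 0.071 for HS+REC in scramble, -0.051 to 0.059 and -0.002 to 0.095 for HS+REC against HS in scramble and siLonp1, and -0.013 to 0.095 between the 2 recoveries. AXIN2 ran from -0.089 to 0.077 and -0.09 to 0.135 for HS+REC in scramble and siLonp1, -0.186 to 0.051 for siLonp1 in HS+REC and -0.108 to 0.13 for the HS+REC interaction. LEF1 ran from -0.161 to 0.056 and -0.116 to 0.13 for HS in scramble and siLonp1, and -0.072 to 0.198 for the HS interaction. RNF43 ran from -0.054 to 0.008 for siLonp1 in Ctrl, NKD1 from -0.053 to 0.129 between the recoveries, ZNRF3 from -0.081 to 0.032 and MYC from -0.037 to 0.153 for HS+REC against HS in siLonp1.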
